A study of Mus musculus with 36 samples.

Results

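The collagen chain genes are described here across 6 groups of mice. They were taken as the protein-coding rows of the gene table whose name has the form Col, a number, a and a number, with nothing after it, which gave 44 of 46893 features. By the kind of collagen they encode, 11 are fibrillar, 6 are basement membrane (type IV) and 27 are other collagens. The measurement was poly(A) RNA-seq of 1 gastrocnemius muscle, a calf muscle, from each of 36 male wild-type C57BL/6 mice, 6 mice per group, aged 3 to 4 weeks at the start. The sedentary NFD-C mice were fed for 12 weeks on a diet in which fat gave 16% of the energy, and all other mice on a high-fat diet in which it gave 45%. HFD-C mice were sedentary, and the others had a running wheel. HFD-U mice ran without restriction, 8.3 km per day, and HFD-25% (2.1 km per day), HFD-50% (4.2 km per day) and HFD-75% (6.3 km per day) were held to 25, 50 and 75% of that distance. All 4 running groups were on the high-fat diet, so no group shows running on the low-fat diet.

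Collagens are proteins of 3 chains wound into a triple helix, and each chain has its own gene. Type I, III and V chains form the banded fibrils of the connective tissue around muscle fibres, and type VI forms the beaded filaments that link these fibrils to the fibre surface. Type IV chains form the network of the basement membrane around each muscle fibre and capillary. In adult muscle, fibroblasts make most of the fibrillar collagen, which gives the tissue its passive stiffness and carries force to the tendon.

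The promoters of the 2 most abundant fibrillar genes, whose products are found in the same fibrils, are shown because they differ widely in sequence. The 250 bases before the annotated RefSeq start, on the plus strand of build GRCm38.p6, are shown for Col1a2 at chr6:4505368-4505617 and for Col3a1 at chr1:45311288-45311537. Capitals mark the letters CCAAT and GGGCGG on either strand, which do not overlap each other, the first being known as the CCAAT box and the second as the GC box.
Col1a2: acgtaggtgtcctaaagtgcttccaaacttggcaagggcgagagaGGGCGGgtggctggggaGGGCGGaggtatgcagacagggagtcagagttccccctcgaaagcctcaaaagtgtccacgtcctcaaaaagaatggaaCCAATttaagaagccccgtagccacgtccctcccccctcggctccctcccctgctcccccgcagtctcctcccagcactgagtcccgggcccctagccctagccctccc
Col3a1: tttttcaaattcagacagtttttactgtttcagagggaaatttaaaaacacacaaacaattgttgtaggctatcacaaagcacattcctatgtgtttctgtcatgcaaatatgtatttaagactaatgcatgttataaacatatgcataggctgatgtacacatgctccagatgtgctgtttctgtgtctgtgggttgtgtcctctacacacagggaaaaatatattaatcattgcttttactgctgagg
The Col1a2 window held 1 CCAAT, whose match began 109 bases before the start, and 2 GGGCGG, and 62.0% of its bases were G or C. The Col3a1 window held neither, with 35.2% G or C. Of the 44 genes, 35 were matched to a RefSeq promoter of 300 bases, from 250 before to 50 after the start. CCAAT was found in 12 of them (34.3%) and in 37.9% of the promoters of all 27025 genes in that table, and GGGCGG in 22 (62.9%) and in 35.9% of all. The GC content of the 35 promoters had a median of 60.0%, and that of all promoters 52.7%. Col1a1 was not among the 35.

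The type IV genes lie in pairs that start back to back. In GRCm38.p6 the RefSeq starts of Col4a2, on the plus strand, and Col4a1, on the minus strand, are 22 bases apart counting both ends, at chr8:11312805-11312826, with a GC box (capitals) between them.
Start to start, plus strand: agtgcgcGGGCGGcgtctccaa
In the coordinates of the deposited table (GRCm39 chromosome accessions) Col4a1 (chr8:11248423-11362889) and Col4a2 (chr8:11362805-11499287) overlapped by 85 bases. Col4a4 and Col4a3 were likewise head to head on chromosome 1 with 71 bases between them, and Col4a6 and Col4a5 on chromosome X with 1275. Col3a1 (chr1:45350698-45388866) and Col5a2 (chr1:45413491-45542442) stood tail to tail, 24624 bases apart, and Col6a2 and Col6a1 in the same orientation on chromosome 10. Whether reads were counted by strand is not given in the sources used here, so reads from the overlap of Col4a1 and Col4a2 could have been assigned to either.

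The 36 libraries held 13060090 to 27981702 counts, with a median of 16710688. Collagen genes took 0.0381 to 0.0938% of them, against skeletal muscle fibre markers (Ckm, Acta1, Myh4 and 5 others) whose sum was 86184 to 182057 CPM (counts per 1000000), so the tissue label held. Levels are given as CPM scaled by TMM factors, or per length as FPKM (CPM per kilobase of the gene length in the table). The libraries fell into 2 sets by the share of counts on 5 rRNA-linked features. All NFD-C mice and HFD-C mice 1 to 4 had 2.01 to 3.80%, and HFD-C mice 5 and 6 and all 24 running mice had 0.404 to 1.02%. Running and the low share therefore went together except in 2 mice, and the counts against HFD-C and the changes of several named genes are also given with low-share libraries only.

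Per length, the muscle held most of 4 collagens: type III, type I, type IV and type VI. Col3a1, the sole chain of type III, had the highest mean over the 36 mice at 14.3 FPKM, followed by Col1a2 (12.3 FPKM), one of the chains of type I. Of type IV, Col4a2 (10.2 FPKM) and Col4a1 (9.11 FPKM), the pair that makes up the common basement membrane network, came next with Col6a1 (9.15 FPKM) and Col6a2 (5.45 FPKM) of type VI. Col1a1, which gives the other chain of type I, had 5.38 FPKM and Col7a1, known from the anchoring fibrils of skin, 5.18 FPKM. Col5a3 (3.55 FPKM), Col15a1 (2.98 FPKM), Col22a1 (2.96 FPKM), Col5a2 (2.41 FPKM), Col5a1 (2.39 FPKM) and Col6a3 (2.07 FPKM) made up the middle of the order. Col15a1 encodes a chain of the zone just outside basement membranes and Col22a1 one found at the junction of muscle and tendon. Col20a1 had 1.17 FPKM, Col8a1, of a short-chain collagen of vessel walls, 1.09 FPKM, and the minor type IV chain Col4a5 0.439 FPKM. At the lower end, 13 genes were under the mean count of 25 in every comparison and had no test, among them the cartilage collagens Col2a1 (0.0198 FPKM), Col10a1 (0.0168 FPKM) and Col11a1 (0.0521 FPKM). The range of most genes spanned several times their lowest level, as the plot of levels per length shows, so neighbours in this order overlapped.

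**Figure D1:**
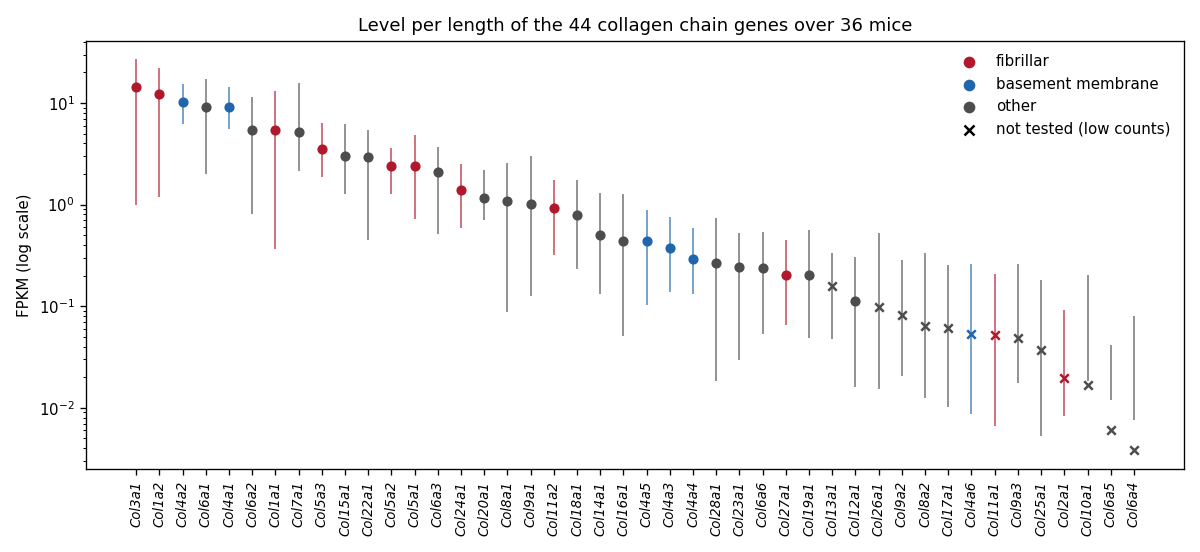
Level per length (FPKM, log axis) of each of the 44 collagen genes: points are means over 36 mice, lines run from the lowest level above 0 to the highest, colours give the class and crosses mark genes with no test. Col3a1, Col1a2, Col4a2, Col6a1 and Col4a1 had the highest means, from 14.3 to 9.11 FPKM, and the 13 untested genes lay at the right, with the tested gene Col12a1 between them.

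Several chains of 1 molecule kept close to each other from mouse to mouse. The correlations given here and in the next paragraph are of log2(CPM + 0.5) and describe 36 libraries that also share depth and tissue composition. One of these, HFD-50% replicate 4, had 14.2 CPM of Col1a1, Col1a2 and Col3a1 together, where the next lowest mouse had 94.2 CPM. It can weigh heavily on r, and no r without it was computed. Col1a1 and Col1a2 had a Pearson r of 0.98 over the 36 mice and 0.97 after each group's mean was removed. The pairs Col6a1 and Col6a2 (r = 0.95), Col6a2 and Col6a3 (r = 0.94) and Col4a1 and Col4a2 (r = 0.93) were as close, and their values within groups were 0.94, 0.94 and 0.93. Not all chains of 1 type did so. Col5a3 had r of 0.45 with Col5a1 and 0.37 with Col5a2, against 0.81 between Col5a1 and Col5a2, and the neighbours Col4a3 and Col4a4 had 0.26. Over the 20 pairs of tested members of 1 type the median r was 0.41, and over the 445 pairs of different types 0.18. After removal of the group means these were 0.37 and 0.25. The highest r was then 0.97 and 0.95, so closeness was not confined to chains of 1 type.

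Against the mean of Col1a1, Col1a2 and Col3a1, the type VI genes Col6a2 (r = 0.94), Col6a1 (r = 0.94) and Col6a3 (r = 0.89) stood closest, then Col5a1 (r = 0.85) and Col5a2 (r = 0.78). Col4a1 was at 0.64 and Col4a2 at 0.56. Col7a1 (r = -0.31) and Col20a1 (r = -0.47) ran the other way, and Col22a1 was near 0 (r = -0.02). HFD-50% replicate 4, with the lowest type I and III levels, also had the highest Col7a1 (142.4 CPM), so the r of Col7a1 may rest largely on that mouse. Of all genes that are no collagens, those most like the mean of the type I and III genes over the 36 mice were Itih5 (r = 0.91), Mmp2 (r = 0.87), Ssc5d (r = 0.86), Timp2 (r = 0.86), Cd248 (r = 0.81) and Fstl1 (r = 0.81). Mmp2 encodes a gelatinase, Timp2 a metalloproteinase inhibitor and Cd248 a membrane protein of fibroblasts and pericytes. The FPKM ratio of Col1a1 to Col1a2 was 0.446 ± 0.041 (SD, n = 6) in NFD-C and 0.465 ± 0.080 in HFD-C, and its means in the running groups lay between 0.400 and 0.430, within 1 SD of HFD-C. The ratio of Col5a1 to Col5a2 was 1.22 ± 0.171 in NFD-C and 1.19 ± 0.276 in HFD-C and 0.809 ± 0.134, 0.799 ± 0.187, 0.931 ± 0.140 and 0.925 ± 0.112 in the running groups in order of distance. These ratios were not tested.

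The comparisons with HFD-C ask how muscle that ran a set distance on the high-fat diet differed from sedentary muscle on the same diet. A gene was called at an unadjusted p of at most 0.05 by edgeR's quasi-likelihood test, the threshold of the study's counts of changed genes. For its most changed genes the study used an adjusted p of at most 0.05 by DESeq2 with a minimum fold change. It reported such genes in each running group. With edgeR's p adjusted over all genes and a threshold of 0.05, 0 collagen genes were called in any of the 8 comparisons. Each result below is therefore a call without that correction, and the numbers at an unadjusted p by edgeR and DESeq2 follow. Of all genes tested, the adjusted test called 0.0082% in HFD-25%, 0.3% over all running mice, 0.683% and 0.0419% in the trends over 30 and 24 mice, and 0% in the other 4 comparisons. The 5 comparisons of running mice share the 6 HFD-C mice, and they are not independent of each other.

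In HFD-25%, which ran least, 11 of the 31 members tested were called (9 lower, 2 higher), where 6.98% of all 12202 genes tested were called, 3.58% lower and 3.4% higher. DESeq2 also called 11. By class, 5 of 9 fibrillar genes were lower (Col1a1, Col1a2, Col3a1, Col5a1 and Col24a1), 4 of 17 other genes (Col15a1, Col6a3, Col6a1 and Col12a1), and no type IV gene. Col5a2, Col5a3 and Col6a2, of the same collagen types, were not called. The median log2 fold change of the 31 was -0.21, and that of all genes tested -0.01. Col4a3 and Col28a1, named here after their values were seen, were higher. Col24a1 is likewise outside the rule for naming.

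In HFD-50%, 6 of 30 members were called, all lower, with 10.7% of all genes called, 4.89% lower and 5.8% higher. These were Col15a1, Col5a1, Col6a3, Col1a1, Col1a2 and Col12a1, whose log2 fold changes ran from -0.78 to -0.99. DESeq2 called 7. The median over the members was -0.24 and over all genes 0.01.

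In HFD-75%, 7 of 31 were called (6 lower, 1 higher), with 5.47% of all genes called, 3.16% lower and 2.31% higher. The 6 were Col1a1, Col1a2, Col3a1, Col5a1, Col6a3 and Col15a1, and Col28a1 was again the higher one. DESeq2 called 7 as well. The median was -0.30, against -0.00089 over all genes.

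In HFD-U, 4 of 30 were called, all lower, with 5.46% of all genes called, 3.31% lower and 2.15% higher: Col6a3, Col1a2, Col12a1 and Col5a1. DESeq2 called 4. Mice of HFD-C and HFD-U with the same number deviated together in all 6 pairs, and with the replicate number as a block 9 were called (8 lower, 1 higher), with 10.2% of all genes called in that fit, though Col12a1 was then no longer called. The median was -0.35, and -0.01 over all genes.

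**Figure D2:**
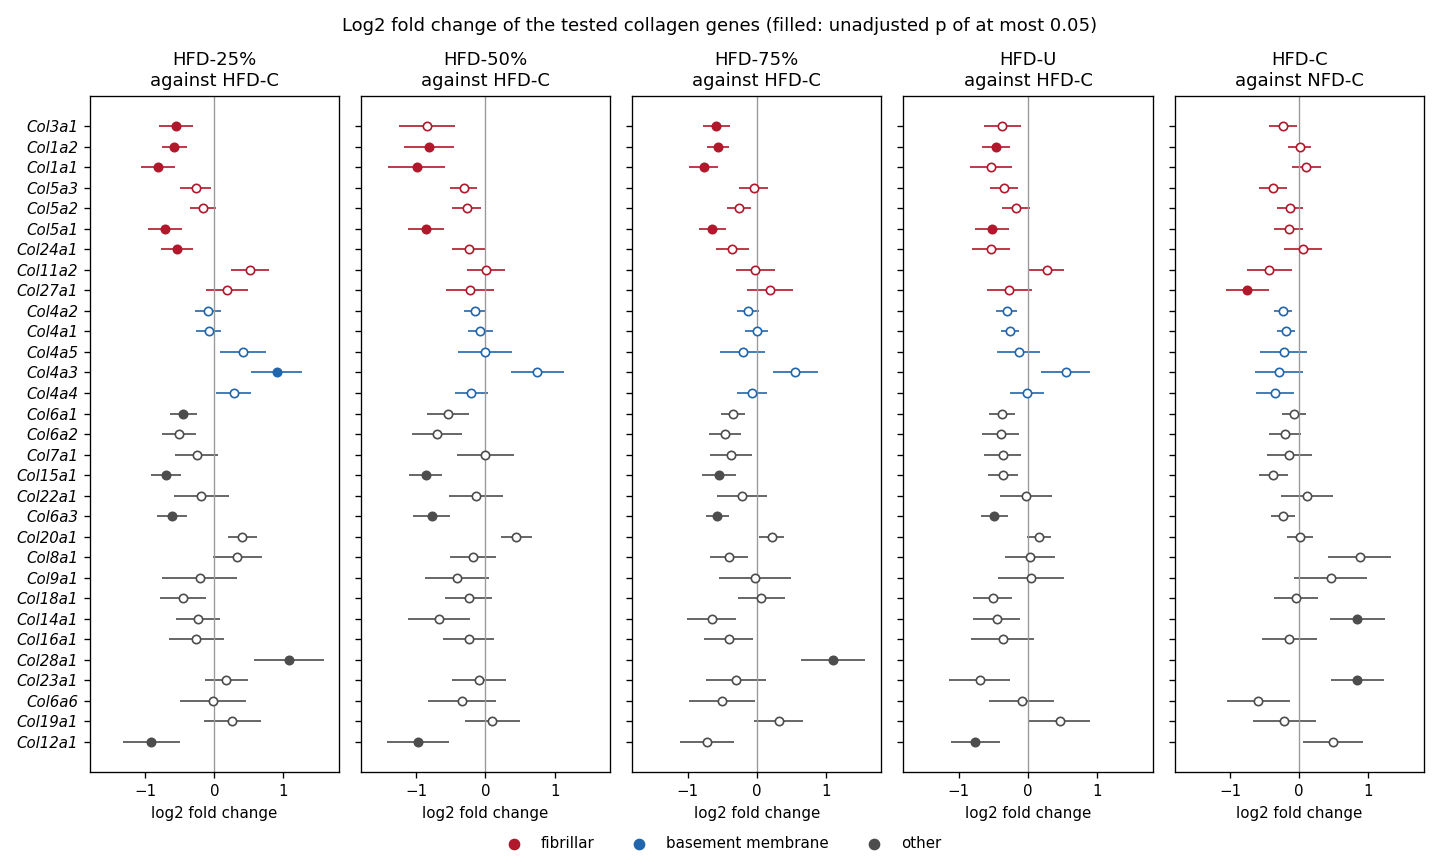
Log2 fold change (x axis) with its standard error for each tested collagen gene (rows, grouped by class in colour) in the 4 comparisons of running mice with HFD-C and in HFD-C against NFD-C; filled points had an unadjusted p of at most 0.05. Fibrillar genes lay mostly left of 0 in the running comparisons (medians from -0.32 to -0.54), while Col4a1 and Col4a2 lay between -0.0012 and -0.15 in the groups with a set distance and at -0.26 and -0.31 in HFD-U.

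Col1a1 shows the pattern. It encodes the more abundant chain of the type I protein, though its RNA was below that of Col1a2 per length. Its lowest, median and highest level was 29.8, 45.9 and 48.4 CPM in NFD-C and 27.4, 41.6 and 76.1 CPM in HFD-C. In HFD-25% these were 16.04, 28.1 and 32.6 CPM, in HFD-50% 2.20, 25.4 and 33.5 CPM and in HFD-75% 20.2, 26.9 and 35.3 CPM. In HFD-U they were 14.9, 29.1 and 51.2 CPM. Every mouse of HFD-25%, HFD-50% and HFD-75% lay below the HFD-C median, but no running group was free of overlap with HFD-C. The log2 fold change was -0.81 ± 0.24 (SE; edgeR adjusted p = 0.427) in HFD-25%, -0.99 ± 0.41 (adjusted p = 0.407) in HFD-50% and -0.76 ± 0.21 (adjusted p = 0.451) in HFD-75%. In HFD-U, 2 of the 6 mice stood above the HFD-C median and the change was not called.

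Col1a2 and Col3a1 went with it. Col1a2 was 83.0 ± 18.9 CPM (SD, n = 6) in HFD-C and 55.7 ± 14.7, 47.2 ± 21.9, 55.9 ± 11.5 and 60.2 ± 20.3 CPM in the running groups in order of distance. It was the one type I or III gene called lower in all 4 groups (log2 fold changes -0.58, -0.81, -0.56 and -0.46). It was not called in HFD-25%, HFD-75% or HFD-U in 1 fit over all 36 mice, and in HFD-U the call was lost without any one of 5 of the 12 mice. With low-share libraries only, or with the share as a covariate, Col1a2 was called in none of the 4 groups. Col3a1 ran from 61.5 to 144.3 CPM in HFD-C and from 78.2 to 147.2 CPM in NFD-C. In HFD-25% it ran from 37.1 to 84.5 CPM and in HFD-75% from 51.6 to 81.4 CPM, and both were called lower (-0.55 ± 0.24 and -0.58 ± 0.20). The HFD-25% call of Col3a1 was lost without any one of 5 of the 12 mice, and both calls were lost in 1 fit over all 36 mice. In HFD-50% its range was 5.67 to 80.4 CPM and in HFD-U 44.6 to 136.9 CPM, and neither change was called. The sum of Col1a1, Col1a2 and Col3a1 had a median of 222.5 CPM in HFD-C, and 169.6, 146.1, 145.7 and 150.5 CPM in the running groups in order of distance.

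Col5a1, a chain of type V collagen, which regulates fibril width, was lower in all 4 running groups. It was 13.9 to 40.3 CPM in HFD-C (median 25.0), 9.90 to 22.6 in HFD-25% (median 16.7), 6.25 to 19.5 in HFD-50% (median 16.2), 15.2 to 19.0 in HFD-75% (median 16.6) and 11.1 to 25.7 in HFD-U (median 17.1). HFD-75% had the tightest range and lay wholly inside that of HFD-C. The log2 fold changes were -0.71 ± 0.24, -0.86 ± 0.26, -0.64 ± 0.20 and -0.52 ± 0.24 (edgeR adjusted p = 0.528, 0.251, 0.577 and 0.912). In HFD-U the call was lost without any one of 7 of the 12 mice. The other type V genes, Col5a2 and Col5a3, were called in none of the 4 groups.

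Col6a3, the long chain of type VI collagen, was also called lower in all 4 groups. Its median was 28.2 CPM in HFD-C and 19.4, 18.6, 19.2 and 20.5 CPM in the running groups in order of distance, with ranges of 19.2 to 39.1 CPM in HFD-C and 5.73 to 26.4 CPM over the running mice. All 24 running mice lay below the HFD-C median, and 13 of them below every HFD-C mouse. The log2 fold changes were -0.61 ± 0.22, -0.78 ± 0.27, -0.57 ± 0.17 and -0.48 ± 0.20, and the HFD-U call was lost without any one of 6 of the 12 mice. With low-share libraries only they were -0.27, -0.44, -0.23 and -0.15, none of them called. Its partners Col6a1 and Col6a2 were called less widely: Col6a1 in HFD-25% (-0.44 ± 0.20), and Col6a2 in no single group.

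Col15a1 was called lower in the 3 groups with a set distance. It was 13.2 to 34.2 CPM in HFD-C, 8.63 to 15.7 CPM in HFD-25%, 7.23 to 17.7 CPM in HFD-50%, 9.93 to 24.8 CPM in HFD-75% and 9.23 to 19.2 CPM in HFD-U. In HFD-50% and in HFD-75%, 5 of the 6 mice lay below every HFD-C mouse. The log2 fold changes in the 3 groups were -0.70 ± 0.21, -0.86 ± 0.24 and -0.54 ± 0.25, the last lost without any one of 7 of the 12 mice. Col12a1, whose product coats type I fibrils, was low throughout. Its counts per library were 10 to 67 in HFD-C and 4 to 36 in the running mice, with means of 2.40 CPM in HFD-C and 1.22 to 1.47 CPM in the running groups, so its changes (-0.91, -0.98 and -0.76 in HFD-25%, HFD-50% and HFD-U) rest on few reads.

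**Figure D3:**
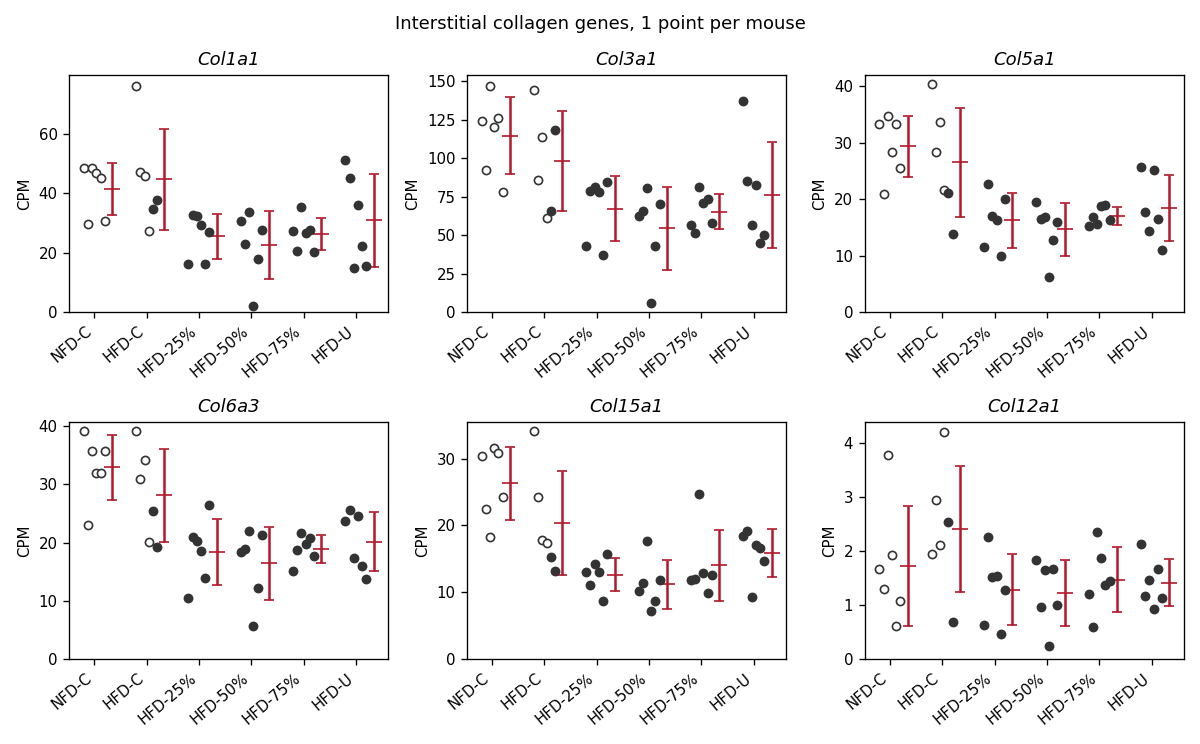
CPM (y axis) of Col1a1, Col3a1, Col5a1, Col6a3, Col15a1 and Col12a1 in each of the 6 mice of each group, with the mean and SD in red; open points are libraries with the high rRNA-linked share, filled points those with the low share. Running mice lay lower than most HFD-C mice but overlapped them, and the 2 filled HFD-C points lay among or near the running mice for Col5a1 and Col15a1 and above most of them for Col1a1.

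The 24 running mice taken as 1 group gave calls for all 3 abundant chains of type VI as well as for type I, III and V. Of 31 members, 12 were called (10 lower, 2 higher), with 9.27% of all genes called, 5.12% lower and 4.15% higher, and DESeq2 also called 12. Of the 10, 5 were fibrillar: Col5a1 (-0.68 ± 0.18, edgeR adjusted p = 0.103, the smallest of any member here), Col1a1 (-0.77 ± 0.27), Col1a2 (-0.60 ± 0.22), Col3a1 (-0.58 ± 0.26) and Col24a1 (-0.42 ± 0.19). The others were Col6a3 (-0.61 ± 0.18), Col15a1 (-0.61 ± 0.18), Col12a1 (-0.84 ± 0.29), Col6a1 (-0.43 ± 0.18) and Col6a2 (-0.51 ± 0.22). Without HFD-C mouse 1, the mouse with the highest Col1a1 and Col5a1, the count fell to 6, with Col1a1 at -0.55.

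These calls depended on which HFD-C libraries were used. With the 26 low-share libraries only, which leaves HFD-C mice 5 and 6 on one side, 2 members were called in the comparison of all running mice (1 lower, 1 higher), with 13.4% of all genes called. For the running groups in order of distance the counts were then 2, 3, 3 and 4, of 30, 28, 29 and 27 tested, with 11.6, 9.45, 8.99 and 11.8% of all genes called. In HFD-U, Col1a2, Col5a1 and Col6a3 were no longer called. The genes differed by degree in how much of their change was left. For Col5a1, HFD-C mice 5 and 6 had 21.0 and 13.9 CPM, the running mice a median of 16.5 CPM and HFD-C mice 1 to 4 had 21.7 to 40.3 CPM, and the log2 fold change over low-share libraries was -0.07. Col15a1 (-0.08), Col6a1 (-0.02) and Col6a2 (0.07) were likewise near 0 for all running mice among low-share libraries. By group, Col5a1 was then at -0.10, -0.25, -0.04 and 0.08 in order of distance. Col15a1 was at -0.16, -0.34 and -0.02 in the groups with a set distance, and none of these was called. For Col15a1, 15 of the 24 running mice were below both HFD-C mice 5 and 6. For Col1a1, HFD-C mice 5 and 6 had 34.7 and 37.6 CPM and 20 of the 24 running mice were below both. Its log2 fold changes among low-share libraries were -0.46 for all running mice, -0.49 for HFD-25%, -0.68 for HFD-50% and -0.46 for HFD-75%. The last was still called there, but not with the share as a covariate (edgeR unadjusted p = 0.179). For Col1a2 (69.2 and 78.8 CPM), 19 of 24 were below both, with -0.43 for all running mice, and for Col3a1 (66.0 and 118.3 CPM), 12 of 24, with -0.48. For Col24a1 (15.1 and 18.8 CPM), 23 of 24 were below both, but HFD-C mice 1 to 4 had only 7.11 to 14.7 CPM, beside a running median of 9.63 CPM. With 2 control mice the absence of a call does not show that levels were equal, and for the rest of the difference running and the rRNA-linked share cannot be told apart.

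Markers of other cells moved in part with these genes. In bulk tissue, fewer cells of a type and less RNA per cell cannot be told apart. Of 9 tendon cell markers (Tnmd, Scx, Fmod and others), none at 0 in all libraries of a group, the sum was 30.6 to 102.2 CPM in HFD-C (median 91.5), 32.4 to 75.5 in HFD-25% (median 55.4), 19.6 to 67.1 in HFD-50% (median 46.0), 35.96 to 89.5 in HFD-75% (median 59.3), 29.7 to 80.3 in HFD-U (median 72.0) and 39.8 to 98.3 in NFD-C (median 59.2). Thbs4 made up most of the tendon sum, with a mean of 56.6 CPM in HFD-C beside 83.1 CPM for all 9 markers. In the comparison of all running mice, 2 of the 3 tendon markers tested were called lower, where 5.12% of all genes tested were. These were Thbs4 and Scx, and Fmod was not called. Of 3 adipocyte markers tested there, 2 were also called lower. Their median log2 fold change was -1.28, beside -0.46 for the tendon markers. Of 12 fibroblast markers (Pdgfra, Dcn, Lum and others), 1 was called lower there, and the sum had medians of 1167 CPM in HFD-C, 1262 CPM in NFD-C and 1011 to 1061 CPM in the running groups, with ranges of 648.0 to 1392 CPM in HFD-C and 689.6 to 1502 CPM over the running groups. The markers were not read with low-share libraries only, and the part of tendon tissue or of fibroblast number in the collagen result was not tested.

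Col4a1 and Col4a2, of the basement membrane, were read in the same comparisons. Col4a1 was 76.7 ± 11.9 CPM (SD, n = 6) in HFD-C, and 72.6 ± 21.7, 72.7 ± 22.5, 76.4 ± 22.1 and 64.0 ± 11.6 CPM in the running groups in order of distance. Col4a2 was 69.1 ± 11.1 CPM in HFD-C and 64.9 ± 20.4, 62.2 ± 14.5, 63.3 ± 16.4 and 55.9 ± 12.4 CPM. Neither was called in any comparison, and each running group overlapped HFD-C. In HFD-U their log2 fold changes were -0.26 ± 0.13 and -0.31 ± 0.15. Over all running mice they were -0.10 ± 0.15 and -0.17 ± 0.15, beside -0.77 and -0.60 for the type I genes, and the difference between the classes was not tested. Col4a5 was not called either.

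Col4a3, one of the chains of the kidney and lung type of type IV network, was the type IV gene called higher, in HFD-25% (0.90 ± 0.37, edgeR adjusted p = 0.663) and over all running mice (0.69 ± 0.26). It is outside the rule for naming and was chosen after its values were seen. It was low, with 1.25 to 4.95 CPM in HFD-C (median 1.60) and 1.74 to 6.63 CPM over the running mice (median 3.25), and all 24 running mice lay above the HFD-C median. Of 8 endothelial markers, edgeR called 5 higher at an unadjusted p in HFD-25%, where 3.4% of all genes were called higher. HFD-50% had 4 (5.8% of all genes), HFD-75% had 2 (2.31%) and HFD-U had 0 (2.15%). Over all running mice, 1 of the 8 markers was called higher, beside 4.15% of all genes. Their sum was 167.7 to 290.8 CPM in HFD-C, 167.2 to 564.9 in HFD-25%, 188.3 to 436.9 in HFD-50%, 195.9 to 369.6 in HFD-75%, 149.3 to 329.1 in HFD-U and 166.5 to 263.8 in NFD-C, with no marker at 0. The part of capillary RNA in the type IV levels was not tested.

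**Figure D4:**
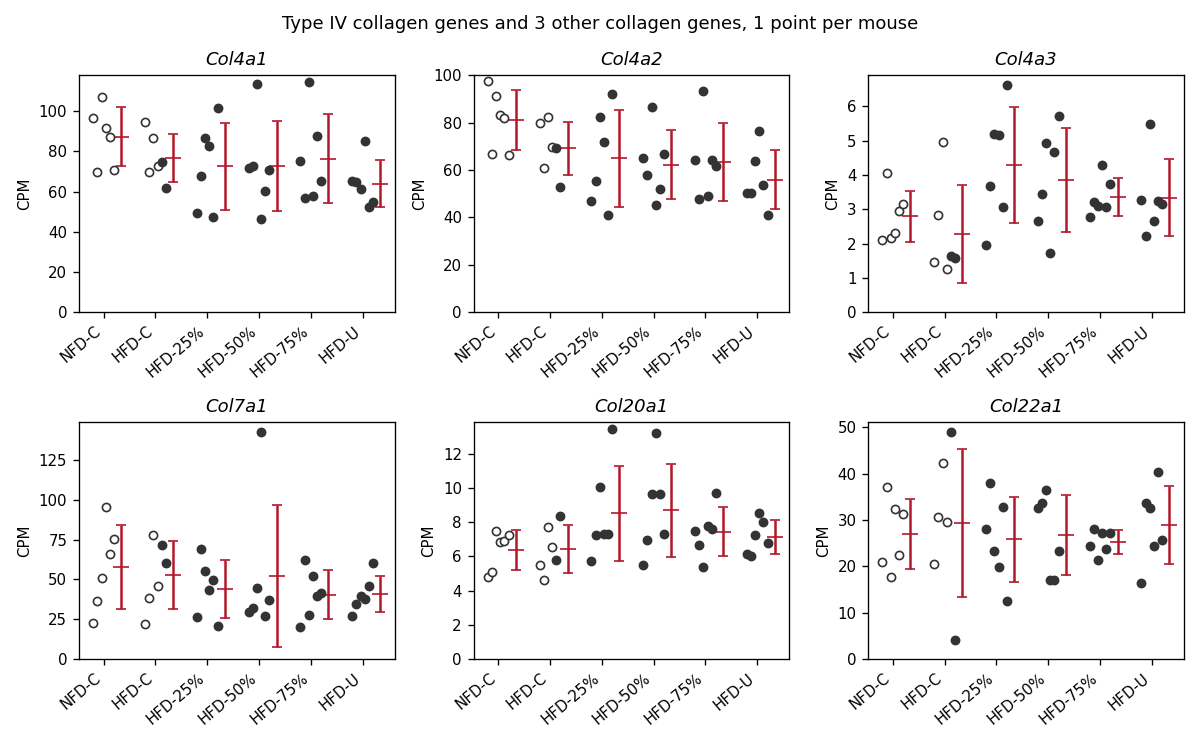
CPM (y axis) of the type IV genes Col4a1, Col4a2 and Col4a3 and of Col7a1, Col20a1 and Col22a1 in each of the 6 mice of each group, with the mean and SD in red and open points for libraries with the high rRNA-linked share. The groups overlapped for every gene shown, and 1 HFD-50% mouse had 142.4 CPM of Col7a1.

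Among the other abundant members, Col7a1, Col22a1, Col20a1 and Col8a1 were called in no comparison. Col7a1 ran from 20.1 to 142.4 CPM over the 24 running mice and from 21.8 to 78.0 CPM in HFD-C, a spread within groups larger than the difference between their means. Col20a1 was 6.43 ± 1.42 CPM in HFD-C and 8.51 ± 2.79, 8.70 ± 2.73, 7.43 ± 1.43 and 7.14 ± 0.998 CPM in the running groups, each of which overlapped HFD-C. Col28a1, chosen after its values were seen, was called higher in HFD-25% (1.08 ± 0.51) and HFD-75% (1.10 ± 0.46), with means of 1.93 and 1.97 CPM against 0.926 CPM in HFD-C.

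One HFD-50% mouse, replicate 4, stood apart. It had 2.20 CPM of Col1a1, 6.36 CPM of Col1a2 and 5.67 CPM of Col3a1, where the group's medians were 25.4, 53.4 and 64.1 CPM. Its levels of Col6a1 (8.21 CPM), Col6a2 (4.97 CPM), Col6a3 (5.73 CPM) and Col5a1 (6.25 CPM) were also the lowest of all running mice. It was not low in every collagen: Col5a3 was at 20.1 CPM, near the group's median of 19.4 CPM, and Col7a1 was the highest of the 36 mice at 142.4 CPM. Without this mouse the HFD-50% change was -0.75 for Col1a1 and -0.58 for Col1a2, and both were still called. The Col1a1 call was lost without HFD-C mouse 1 or HFD-50% mouse 5, and the Col1a2 call without HFD-C mouse 1 or 3 or HFD-50% mouse 5.

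The dose question, whether the level followed the distance run, was asked with a curve of a linear and a quadratic term. Over all 30 HFD mice, 8 of 31 members were called (7 lower, 1 higher), with 12.2% of all genes called (6.46% lower, 5.77% higher). The fitted level was lowest below that of HFD-C in Col1a1 (-0.92), Col12a1 (-0.87), Col5a1 (-0.78), Col15a1 (-0.76), Col3a1 (-0.75), Col1a2 (-0.71) and Col6a3 (-0.69), each given as the log2 difference at the curve's lowest point, and highest above it in Col28a1. The smallest adjusted p by edgeR was 0.114, for Col15a1. DESeq2 called 7, 2 at an adjusted p of at most 0.05. Among the 24 running mice alone, 1 of 30 was called (Col11a2, lower), with 8.49% of all genes called (5.02% lower, 3.47% higher), so the share was not above that of all genes. Col11a2, a minor fibrillar chain known from cartilage, had means of 8.86 ± 2.90, 6.21 ± 1.73, 6.10 ± 1.94 and 7.50 ± 1.74 CPM in order of distance (edgeR adjusted p = 0.559), and these ranges overlapped. In the low-share libraries of the high-fat diet, 0 of 30 members had a trend at an unadjusted p of at most 0.05 by edgeR, with 11.6% of all genes called.

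The diet comparison asks what the high-fat diet did in sedentary mice. Of 30 members tested in HFD-C against NFD-C, 3 were called (2 higher, 1 lower), with 4.12% of all genes called (2.14% higher, 1.98% lower), and DESeq2 called 4. All 3 were genes of low level. Col27a1, a fibrillar chain of cartilage, was 1.41 to 3.75 CPM in NFD-C (median 2.81) and 1.03 to 2.32 CPM in HFD-C (median 1.60), a log2 fold change of -0.75 ± 0.31. Col23a1, a transmembrane collagen, was 0.356 to 1.85 CPM in NFD-C (median 1.12) and 1.19 to 3.56 CPM in HFD-C (median 1.72), a change of 0.84 ± 0.38. Col14a1, which binds fibrils, was 0.966 to 4.66 CPM in NFD-C (median 2.76) and 2.17 to 9.02 CPM in HFD-C (median 4.40), a change of 0.84 ± 0.39. The ranges overlapped for each, and the adjusted p by edgeR was 0.9996 for all 3. Col1a1 and Col1a2 had similar means on both diets, at 41.5 and 82.1 CPM in NFD-C and 44.8 and 83.0 CPM in HFD-C. All 5 type IV genes tested had a log2 fold change below 0 (-0.35 to -0.19), and none was called. So had 6 of 9 fibrillar and 9 of 16 other genes, and 50.1% of all genes tested. The mean sum of the type IV genes was 178.7 CPM in NFD-C and 154.3 CPM in HFD-C, with SDs of 26.4 and 24.2 CPM. Where only high-share libraries were used, 1 was called, Col14a1.

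The proteins that make, cross-link and clear collagen were read from lists of genes. Of 33 listed for synthesis and processing, 32 were in the table. HFD-25% had 2 of 27 tested called, both lower, and HFD-50% had 5 of 27, 4 lower and 1 higher. The higher one was Plod2 (0.99 ± 0.28), which is outside the rule for naming. HFD-75% had 2 of 28 and HFD-U 3 of 27, all lower. Of all genes, 6.98, 10.7, 5.47 and 5.46% were called in these comparisons, in order of distance. Loxl1, a lysyl oxidase that cross-links matrix fibres, was lower in all 4 groups (-0.84 ± 0.21, -1.14 ± 0.22, -0.64 ± 0.25 and -0.44 ± 0.20, with edgeR adjusted p of 0.332, 0.108, 0.817 and 0.891). Loxl2, of the same family, was lower in HFD-50% (-0.73 ± 0.27) and HFD-75% (-0.58 ± 0.22), and Serpinh1, the collagen chaperone of the endoplasmic reticulum, in HFD-25% (-0.37 ± 0.17) and HFD-U (-0.53 ± 0.16). P4hb, a subunit of prolyl hydroxylase and the most abundant of the list at 51.8 FPKM, was called in no group, nor was Pcolce, an enhancer of procollagen cleavage. The median log2 fold change of the list was between -0.08 and -0.12 in the 4 groups. In the distance trend over 30 mice, 1 of 26 genes tested had an adjusted p of at most 0.05 by edgeR (0.0374), with 0.683% of all genes called so. At an unadjusted p, 4 of the 26 were lower and 1 was higher in that trend, with 6.46 and 5.77% of all genes. Genes of this list and of those below were not read with low-share libraries only or with 1 mouse left out, so how far their calls depend on the share was not tested.

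Of 19 collagen receptors and collagenases, 12 were tested in each comparison. HFD-25% had 3 called lower and 1 higher, HFD-50% had 1 lower and 1 higher, HFD-U had 1 lower and HFD-75% had 0 by edgeR at an unadjusted p, against the same shares of all genes. Timp2 was lower in HFD-25% (-0.28 ± 0.13) and HFD-50% (-0.53 ± 0.22), and Timp3, another inhibitor of metalloproteinases, was higher in both (0.49 ± 0.20 and 0.42 ± 0.18). Itgb1, the common subunit of the collagen-binding integrins, was the most abundant at 43.0 FPKM and was called in none. Of 17 proteins that bind collagen in the matrix, edgeR called 2 lower in each of HFD-25%, HFD-75% and HFD-U and 0 in HFD-50% at an unadjusted p, against the same shares. In HFD-50%, 16 of the 17 had a log2 fold change below 0, with a median of -0.32. Over all running mice 5 of the 17 were called, all lower, with 9.27% of all genes called.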

How the data were processed

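The authors deposited whole-number counts per gene, not normalized, for 36 mouse gastrocnemius libraries (poly(A) selected, 150 bp paired-end reads). The submitters' processing notes name HISAT2 2.0.5 and featureCounts 1.5.0-p3 and build mm10, while the chromosome accessions in the deposited count table are those of GRCm39; coordinates from the table are given as GRCm39 and promoters as GRCm38.p6, with no conversion between them. The counts of the 44 genes were read out of fits over all genes (R 4.3.3, edgeR 4.0.16 quasi-likelihood test, TMM, genes with a mean count of 25 or more in the libraries fitted, Benjamini-Hochberg over all genes). A call is an unadjusted p of at most 0.05. DESeq2 1.42.0 was an alternative, and the code was tested on simulated counts. Correlations used log2(CPM + 0.5). The p-values measure the spread between mice.

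Named genes were the 5 fibrillar, 3 type IV and 8 other members with the highest mean FPKM, and the 3 members with the smallest p in each comparison; for the lists, the 3 most abundant genes and those called in at least 2 running groups. The members and lists were chosen with earlier results of these data known. Of the cell marker lists, mural cells, Schwann cells, adipocytes, macrophages, blood and satellite cells had 1, 0, 2, 1, 0 and 1 markers called in the comparison of all running mice with HFD-C, of 6, 5, 3, 7, 5 and 4 tested. Of all genes, 9.27% were called there. The adipocyte and macrophage calls were lower, and the mural and satellite cell calls were higher.

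The main fits used no pairing of mice, and the replicate number entered only as a block in an alternative fit. Same-numbered mice of HFD-C and HFD-U deviated together (r over 0.1) in 6 of 6 pairs (r from 0.14 to 0.53). So did those of NFD-C and HFD-75% (r from 0.10 to 0.59), which are not compared here. For HFD-C with HFD-25%, HFD-50% and HFD-75% this held in 4, 5 and 1 of 6 pairs, and in 4 of 6 with NFD-C. The sample labels name no pairs of mice, so a shared number is not known to mean more.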

Additional observations from a re-analysis of the deposited data

Results flagged for a closer look

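Of 132 groups of 6 mice looked at (22 named genes in 6 groups), 5 had a mouse set apart from the rest by more than Dixon's 95% critical value, and chance alone gives about 1 in 20. Col7a1 in HFD-50% replicate 4 was at 142.4 CPM, with the next mouse at 44.8 CPM. This was the mouse with the lowest type I and III collagen levels. HFD-75% replicate 3 was set apart in both Col4a2 (93.1 CPM, next 64.3 CPM) and Col15a1 (24.8 CPM, next 12.9 CPM). Col14a1 in HFD-50% replicate 3 was at 7.87 CPM, with the next mouse at 2.94 CPM. Col11a2 in NFD-C replicate 1 was the lowest at 2.50 CPM, with the next mouse at 8.004 CPM.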

How the results depend on the processing

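The numbers of collagen genes called changed with the rRNA-linked share. With the share as a covariate they were 2 for HFD-25%, 1 for HFD-50%, 2 for HFD-75%, 2 over all running mice and 2 and 2 in the distance trends over 30 and 24 mice, with 13.3, 11.6, 8.42, 15.1, 13.1 and 4.82% of all genes called in those fits. With low-share libraries only they were 2, 3 and 3 in HFD-25%, HFD-50% and HFD-75%, 2 over all running mice and 0 in the trend over 30 mice (by edgeR without adjustment, with 11.6% of all genes called), and with high-share libraries only 1 for the diet (4.96% of all genes). Directions turned for Col15a1 in HFD-75% (0.029) and Col5a1 in HFD-U (0.13) with the covariate, and for Col5a1 in HFD-U (0.077) and Col6a2 over all running mice (0.074) with low-share libraries only; none of these 4 was called. With no minimum count all 44 members were tested, and 13 were called in HFD-50%, 6 for the diet and 2 in the trend over 24 mice (11.1, 8.59 and 13.1% of all genes). With 1 fit over all 36 mice the numbers were 12 in HFD-50%, 2 in HFD-U and 1 for the diet (14.99, 5.33 and 4.75% of all genes). With a factor for the groups in place of the curve, 3 and 0 were called by edgeR over 30 and 24 mice (9.37 and 7.27% of all genes at an unadjusted p), and single genes have no one direction to give. The cause of these changes was not tested.

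With the replicate block, 9 were called in HFD-U, 6 for the diet and 3 in the trend over 24 mice (10.2, 6.94 and 12.5% of all genes), and no other count moved by over 1.5 times. Of single calls, the block ended those of Col12a1 in HFD-50%, HFD-U and the trend over 30 mice, of Col3a1 in that trend, and of Col27a1 and Col23a1 for the diet.

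Leaving out 1 mouse at a time gave 6 to 11 calls for HFD-25%, 4 to 10 for HFD-50%, 5 to 10 for HFD-75%, 0 to 9 for HFD-U, 6 to 13 over all running mice, 0 to 6 for the diet, 5 to 10 in the trend over 30 mice and 0 to 3 in that over 24. In HFD-25% the count was 7 without HFD-C mouse 1 or 3 and 6 without HFD-25% mouse 4 or 5, and in HFD-50% 10 without HFD-50% mouse 3. Without HFD-C mouse 1 it was 6 over all running mice and 5 in the trend over 30. In HFD-U it was 1 without HFD-C mouse 3, 9 without HFD-C mouse 6, 7, 2, 2 and 8 without HFD-U mice 1, 2, 3 and 4, and 0 without HFD-U mouse 5 or 6. For the diet it was 5, 1 and 0 without NFD-C mice 1, 5 and 6, and 1, 6, 1 and 1 without HFD-C mice 2, 3, 4 and 6. In the trend over 24 mice, Col11a2 was lost without any one of 9 mice. Over all running mice, Col1a1 and Col1a2 were lost without HFD-C mouse 1, Col6a1 and Col6a2 without HFD-C mouse 1 or 3, Col3a1 without HFD-C mouse 1, 3 or 6 and Col12a1 without HFD-C mouse 4, and Col5a1, Col6a3 and Col15a1 kept their call in all 30 of these fits. Of 828 such values for single named genes, 697 kept their call, 131 lost it and 0 changed direction. Genes with few counts, such as Col12a1, Col23a1 and Col27a1, are limited by depth.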
